A study of Mus musculus with 8 samples.

Results

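GIRK channels are the potassium channels through which the mu-opioid receptor (MOR) silences many neurons. The 4 genes that encode their subunits, Kcnj3, Kcnj5, Kcnj6 and Kcnj9, were measured in mice with and without chronic morphine. The RNA was purified from cells tagged through the MOR gene, in dissections aimed at the paraventricular nucleus of the thalamus (PVT). The 4 genes were taken by symbol from the 18939 genes of the count table, by a rule that names the gene family and sets no threshold on their values, and all 4 were measured in all 8 libraries. Of the transcripts listed for a gene, the one with the most reads over all libraries stood for it. The libraries came from translating ribosome affinity purification (TRAP), in which ribosomes that carry an EGFP-tagged L10a protein are pulled down with anti-GFP antibodies and the RNA on them is sequenced. No library of unpurified RNA was among the 8, so enrichment for the tagged cells could not be checked. All mice, controls included, were of the genotype OPRM1cre X EGFP-L10a, in which Cre is inserted into the 3' untranslated region of Oprm1 and switches on the tagged ribosomal protein from the Rosa26 locus, and were young adults on a C57Bl/6J background. Because Cre acts permanently, any cell with Oprm1 now or earlier in development can carry the tag. The morphine group (4 libraries, replicates 3, 4, 7 and 8) drank morphine in 0.2% saccharin, raised to 0.5 mg/ml, for 11 days, and the control group (4 libraries, replicates 1, 2, 5 and 6) drank 0.2% saccharin alone. Each library pooled gross PVT dissections of 2 mice of one sex, with 2 male and 2 female libraries per group by the labels.

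A GIRK channel is a tetramer that opens when the beta and gamma subunits of an inhibitory G protein bind to it, so that potassium leaves the cell and firing slows. Opioid, GABA-B, adenosine and many monoamine and peptide receptors act on it in this way, and it carries much of the acute postsynaptic inhibition produced by opioids. Kcnj3 encodes GIRK1, which does not form a working channel by itself and pairs with another subunit. Kcnj6 encodes GIRK2, which can also form channels with itself, and Kcnj9 encodes GIRK3, which is widespread in the brain and known for its part in the sorting of the channel through endosomes. Kcnj5 encodes GIRK4, best known from the heart, where it forms the acetylcholine-gated channel with GIRK1.

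The coding sequence around the potassium selectivity filter is shown for the 4 genes because this short stretch makes each of them a potassium channel and because the sequences show how closely related the genes are. The letters were read from GENCODE M21 transcripts on GRCm38, 5′ to 3′ along the coding strand, and the capitals mark the codons for the glycine, tyrosine and glycine of the filter, which a search of each coding sequence found at 1 place per gene.
Kcnj3: accgaggccaccatcGGCTATGGCtaccgc
Kcnj5: acagaaacaaccattGGGTATGGCttcaga
Kcnj6: acagaaaccaccatcGGTTATGGCtaccgg
Kcnj9: acggagaccaccatcGGCTATGGGcaccgg
The Kcnj3 stretch lies at chr2:55437618-55437647 on the plus strand, and the other stretches lie on the minus strand at chr9:32322553-32322582 (Kcnj5), chr16:94832771-94832800 (Kcnj6) and chr1:172326178-172326207 (Kcnj9). All are exonic and coding. The first glycine was residue 145 of 501 in the Kcnj3 product, 151 of 419 in that of Kcnj5, 156 of 425 in that of Kcnj6 and 122 of 393 in that of Kcnj9. Of the 30 bases, 25 were the same in Kcnj3 and Kcnj6, 25 in Kcnj3 and Kcnj9 and 25 in Kcnj6 and Kcnj9, whereas Kcnj5 shared 24 with Kcnj6, 21 with Kcnj3 and 20 with Kcnj9.

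By RefSeq on GRCm38.p6, Kcnj3 spans chr2:55411798-55598145 on the plus strand, and Kcnj5 spans chr9:32314706-32344380, Kcnj6 chr16:94744980-94997696 and Kcnj9 chr1:172320508-172329322 on the minus strand. Noncoding genes on the opposite strand overlap 3 of them, namely Gm26794 at Kcnj3, Gm41505 and Gm22745 at Kcnj6 and Gm36937 at Kcnj9. The libraries were directional, but the counting is not stated to have used the strand, so a contribution of these transcripts cannot be told apart from the subunits.

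Total counts per library lay between 37081348 and 43311793 in controls and between 31151103 and 47582947 in morphine. These gave 2131 to 3741 reads per library for Kcnj3, 160 to 415 for Kcnj5, 982 to 2041 for Kcnj6 and 2210 to 4543 for Kcnj9, so counting error relative to the level was largest for Kcnj5. Oprm1, which the labels use to define the cells, was at 25.3 ± 6.92 CPM (CPM, counts scaled to a common library size after TMM normalization, SD, n = 4) in controls and 16.5 ± 1.95 in morphine. The summed level of 10 thalamic relay neuron markers was 2320 to 2900 CPM in controls and 1780 to 3040 in morphine, so thalamic RNA was present in all libraries. Of these 10 genes 9 had a log2 fold change below 0 in morphine, with a median of -0.23 against 0.0088 over all genes, and edgeR called 0 of them (1, Gbx2, named after its values were seen, was lower at an unadjusted P under 0.05). RNA that marks other tissue was present too, and its values stand beside the results below. Control replicate 5 is labelled female but held 2072 counts of 4 Y-linked genes, against 1 to 2 in the other female libraries and 4240 to 6145 in the male libraries.

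To ask which subunits the purified RNA contained most of, counts were divided by transcript length, since levels of different genes can be compared only per length. Kcnj9 was highest at 21.4 ± 2.69 CPM per kilobase (mean of 8 libraries, SD), followed by Kcnj3 at 12.7 ± 1.69, Kcnj6 at 10.6 ± 2.37 and Kcnj5 at 1.67 ± 0.444. By these lengths Kcnj9 was above Kcnj3, Kcnj3 above Kcnj6 and Kcnj6 above Kcnj5 in 8 of 8 libraries. Each of the 6 pairs had an exact two-sided sign-flip permutation P of 0.00781 (also 0.00781 after Benjamini-Hochberg adjustment over the 6 pairs), the smallest value that 8 libraries allow.

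The step from Kcnj3 to Kcnj6 was small, with a ratio of the per-length levels of 1.21 (range over libraries 1.02 to 1.35), whereas Kcnj9 exceeded Kcnj3 by 1.69 (1.36 to 2.41) and Kcnj6 exceeded Kcnj5 by 6.45 (4.29 to 14.0). The order of Kcnj3 and Kcnj6 is uncertain, because the length of the counted Kcnj6 transcript is. It was assigned 3097 bases, the GENCODE length matched to 2 of its 4 listed transcripts. At 2362 bases, the length of another listed transcript, the ratio of Kcnj3 to Kcnj6 was 0.92 and Kcnj3 was higher in 2 of 8 libraries, and at 3627 bases it was 1.41 and 8 of 8. Kcnj9 stood above Kcnj6 in 8 of 8 libraries at each of these lengths. When the counts of all rows of a gene were summed instead, which adds 4 rows for Kcnj6 and 1 for each of the others, Kcnj6 stood above Kcnj3 and Kcnj9.

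As shares of the summed per-length level of the 4 subunits, Kcnj9 made up 49.7 ± 4.76% in controls (SD, n = 4) and 42.8 ± 1.05% in morphine. Kcnj3 made up 25.7 ± 1.82% in controls and 28.9 ± 1.44% in morphine, and Kcnj6 20.6 ± 2.56% and 25.0 ± 2.15%. Kcnj5 made up 4.01 ± 0.966% and 3.29 ± 1.22%. The 3 subunits known from neurons therefore held nearly all of the GIRK signal in every library.

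Among all 15 inward rectifier genes measured, ranked by mean per-length level at the assigned lengths, Kcnj9 was in place 2, Kcnj3 in place 3, Kcnj6 in place 5 and Kcnj5 in place 9. These places hold only for those lengths. At a Kcnj6 length of 2362 bases the ratio of Kcnj3 to Kcnj6 was 0.92, so Kcnj6 would stand above Kcnj3. The places of Kcnj6 and Kcnj5 depended on the group, since Kcnj6 was in place 5 in controls and 4 in morphine and Kcnj5 in place 8 and 10, whereas Kcnj9 and Kcnj3 had the same places in both. Place 1 went to Kcnj12, a strong inward rectifier, at 25.9 CPM per kilobase (19.9 to 31.1 over the libraries), a range that overlapped that of Kcnj9 (18.6 to 26.5). That place depends on the 2459 bases taken as its length, since RefSeq ends the gene at 61073269, beyond the GENCODE end of 61071131. By coding length (1587 bases against 1179 for Kcnj9) Kcnj12 would stand below Kcnj9, which had more CPM in both groups. Kcnj11, the pore subunit of ATP-sensitive channels and also named after its values were seen, had 10.7 CPM per kilobase, with 9.97 ± 2.57 in controls and 11.5 ± 1.99 in morphine against 8.96 ± 1.05 and 12.3 ± 2.12 for Kcnj6 (SD, n = 4).

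**Figure D1:**
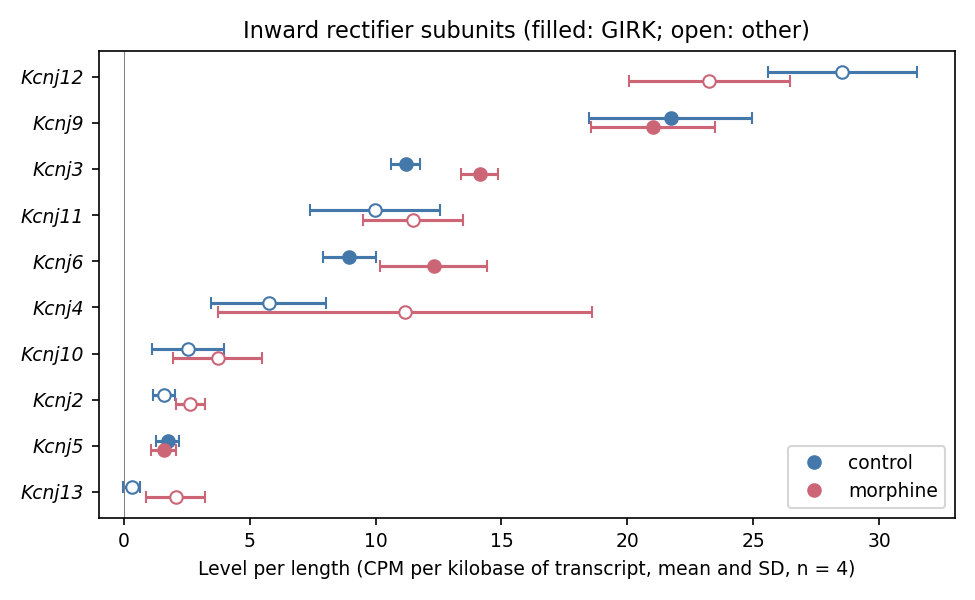
Per-length level (CPM per kilobase of transcript, linear axis) of the 10 inward rectifier genes with a mean above 1 CPM per kilobase, as group means with SD over 4 libraries (blue control, red morphine; filled GIRK, open other). Kcnj9 lies near 21 in both groups, Kcnj3 at 11.2 in controls and 14.1 in morphine, Kcnj6 at 8.96 and 12.3, and Kcnj5 below 2.

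The main comparison asked whether the subunits differed between mice on chronic morphine and on saccharin. Kcnj3 and Kcnj6 had higher levels in the morphine libraries, by 1.26 times and 1.38 times, and Kcnj9 and Kcnj5 differed by less than the spread between libraries. None of the 4 was called by edgeR's quasi-likelihood test at a Benjamini-Hochberg adjusted P value under 0.05 over 18939 genes, a threshold that 0.195% of all genes passed.

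Kcnj3 (GIRK1) was at 54.6, 57.3, 59.8 and 61.6 CPM in control replicates 1, 2, 5 and 6 and at 69.4, 77.0, 71.4 and 76.9 CPM in morphine replicates 3, 4, 7 and 8. All 4 morphine libraries were above all 4 controls, with a gap between the groups that was wider than the spread within either. The means were 58.4 ± 3.05 and 73.7 ± 3.86 CPM (SD, n = 4). On the log2 scale the fold change was 0.34 (standard error 0.085, 95% interval 0.15 to 0.52). The unadjusted P value of edgeR's quasi-likelihood test was 0.00207 and the Benjamini-Hochberg adjusted P value 0.143. DESeq2 gave almost the same fold change and an adjusted P value of 0.00972. An exact two-sided permutation test over the 70 arrangements of the libraries gave P = 0.0286, the smallest value that 4 against 4 allow. The call for Kcnj3 thus depended on the tool.

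Kcnj6 (GIRK2) was at 25.2, 25.2, 28.6 and 32.0 CPM in the controls and at 30.4, 45.0, 35.1 and 42.0 CPM in the morphine libraries, in the same order of replicates. The groups overlapped by 1 pair, since morphine replicate 3 was below control replicate 6, and the other 3 morphine libraries were above all controls. The means were 27.7 ± 3.25 and 38.1 ± 6.58 CPM (SD, n = 4). The log2 fold change was 0.46 (standard error 0.137, 95% interval 0.16 to 0.76). By edgeR's quasi-likelihood test the unadjusted P value was 0.00625 and the adjusted P value 0.205, DESeq2 gave an adjusted P value of 0.0738, and the exact permutation P was 0.0571.

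Kcnj9 (GIRK3) was at 78.6, 102.3, 74.8 and 79.4 CPM in the controls and at 74.0, 88.6, 71.8 and 89.9 CPM in the morphine libraries. The groups overlapped, with morphine replicates 3 and 7 just below the lowest control, and control replicate 2 was the highest of all 8 libraries. The log2 fold change was -0.047 (standard error 0.123), and its 95% interval, -0.32 to 0.22, held the value 0 (edgeR's quasi-likelihood test, adjusted P = 0.903, exact permutation P = 0.771). Without control replicate 2 the log2 fold change was 0.064.

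Kcnj5 (GIRK4) was at 7.90, 7.20, 6.46 and 11.3 CPM in the controls and at 10.2, 4.84, 6.59 and 7.95 CPM in the morphine libraries. These groups overlapped too, although morphine replicate 4, which held 160 reads, was below all controls and control replicate 6 above all morphine libraries. The log2 fold change was -0.15 (standard error 0.237), and the 95% interval of -0.66 to 0.37 is the widest of the 4 (edgeR's quasi-likelihood test, adjusted P = 0.839, exact permutation P = 0.629). A difference of the size seen for Kcnj3 lies within that interval.

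**Figure D2:**
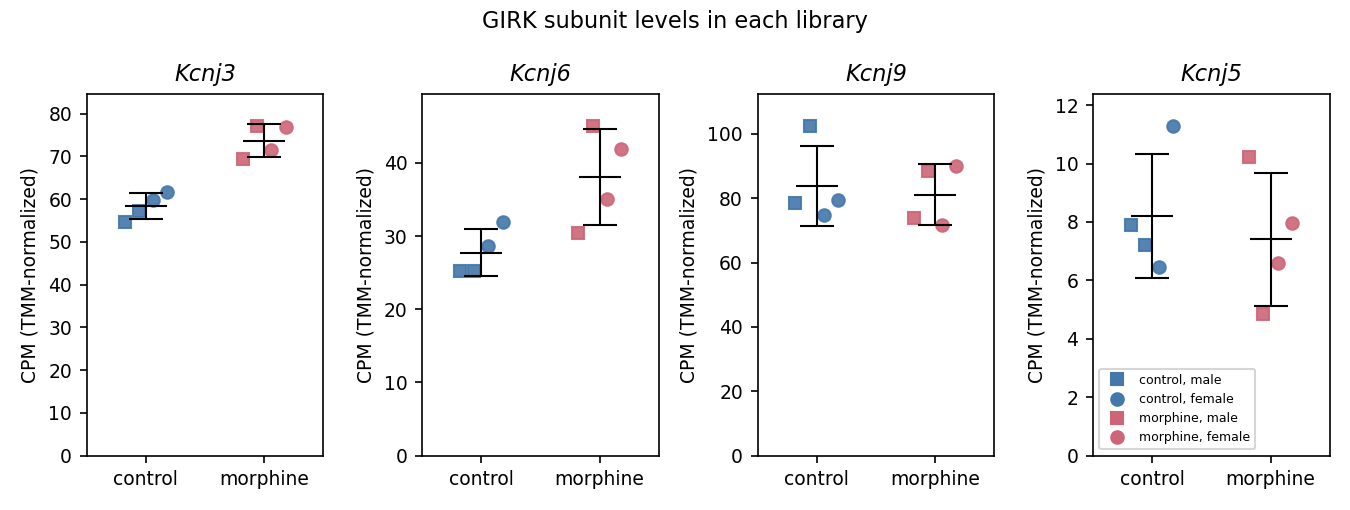
TMM-normalized CPM of each GIRK subunit by library (linear axes from 0; squares male, circles female by the labels), with the mean and SD of 4 libraries per group; replicates 1, 2, 5 and 6 (control) and 3, 4, 7 and 8 (morphine) run from left to right. All morphine libraries lie above all controls for Kcnj3 and 3 of 4 do for Kcnj6, and the groups overlap for Kcnj9 and Kcnj5.

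For scale, 6.79% of all genes were higher in morphine at an unadjusted P value under 0.05 in the same edgeR fit (12.1% in either direction), as were 2 of the 4 subunits. By DESeq2, 1.7% of all genes were called higher at an adjusted P value under 0.05, as was 1 of the 4, Kcnj3. Morphine libraries were above all controls without overlap for 3.34% of genes (6.54% without overlap in either direction), again including Kcnj3. With 4 members these counts are a description only.

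Because the subunits assemble with one another, the ratios of their counts were compared between the groups, a measure that does not depend on the scaling between libraries. Per library the ratio of Kcnj9 to Kcnj3 counts was 1.44, 1.79, 1.25 and 1.29 in controls and 1.07, 1.15, 1.00 and 1.17 in morphine. Every morphine library was below every control. The mean log2 ratio differed by -0.38, or 0.768 times (exact two-sided permutation P = 0.0286, adjusted over the 6 pairs 0.0857).

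The ratio of Kcnj9 to Kcnj6 was 3.12, 4.06, 2.61 and 2.48 in controls and 2.43, 1.97, 2.04 and 2.14 in morphine. The groups did not overlap here either, although the lowest control and the highest morphine library were close. The mean log2 ratio differed by -0.49, or 0.711 times (exact permutation P = 0.0286, adjusted 0.0857). Neither difference passed 0.05 after adjustment over the pairs. The unadjusted P changed when single libraries were left out, although the groups then still did not overlap. Without control replicate 2, the highest ratio of both, the exact permutation P was 0.0286 for Kcnj9 to Kcnj3 and 0.0571 for Kcnj9 to Kcnj6, and without any 1 of the morphine libraries it was 0.0571 to 0.0857 for either ratio.

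The ratio of Kcnj3 to Kcnj6, the pair that forms the most common neuronal channel, was 2.17, 2.27, 2.09 and 1.93 in controls and 2.28, 1.71, 2.03 and 1.83 in morphine. The groups overlapped and the mean log2 ratio differed by -0.11 (exact permutation P = 0.314, adjusted 0.377). The ratios of the other subunits to Kcnj5 varied most between libraries, and none of the 3 differed between the groups beyond that spread (exact permutation P from 0.114 to 0.743).

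**Figure D3:**
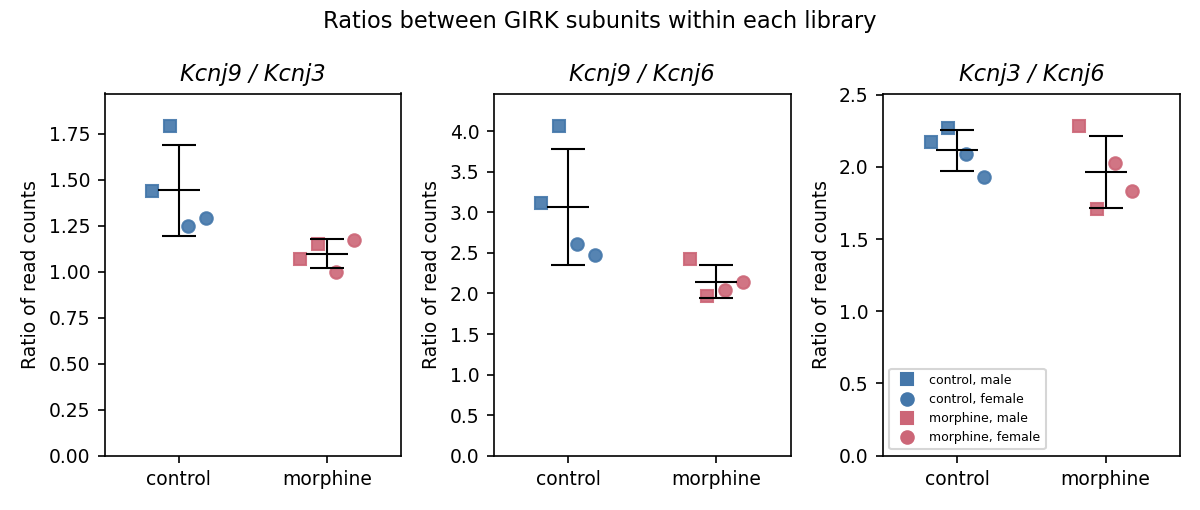
Ratio of read counts of 2 subunits within each library (linear axes from 0; squares male, circles female by the labels), with the mean and SD of 4 libraries per group. The Kcnj9 to Kcnj3 and Kcnj9 to Kcnj6 ratios are lower in every morphine library than in every control, by 0.768 and 0.711 times on the mean log2 scale, whereas the Kcnj3 to Kcnj6 ratios overlap.

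Kcnj6 was the only subunit with more than 1 transcript row, with 4 of them. The ends of their coding sequences are shown because the transcripts differ there and so encode different tails of GIRK2. Capitals mark the bases of the last coding exon, and the coordinates are those of GRCm38, minus strand.
425-residue form: GCAAACCTAGAGAATGAATCCAAAGTATAG
414-residue form: ccggaagaactgacggagaggaatgGGTGA
302-residue form: ggaatggtggaagccacagGGCAGTTCTGA
The end of the 425-residue form lies at chr16:94762360-94762389, within 1 exon. The end of the 414-residue form spans an intron, from 94762422 to 94749266, and so does that of the 302-residue form, from 94832317 to 94825003. Of the 4 rows, 2 matched the GENCODE transcript of the 425-residue form although their counts differed, so the difference between those 2 is not resolved here.

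All 4 rows moved alike between the groups. The row of the 414-residue form was at 24.7 ± 3.28 CPM in controls and 34.9 ± 5.55 in morphine, and that of the 302-residue form at 14.6 ± 1.44 and 19.4 ± 3.30 (SD, n = 4). The log2 differences of the 4 rows lay between 0.39 and 0.49, each with an exact permutation P of 0.0571. As a share of the highest row, the 414-residue form was at 89.0 ± 4.35% in controls and 91.7 ± 1.47% in morphine (exact permutation P = 0.343), and the 302-residue form at 52.9 ± 3.98% and 51.0 ± 2.51% (exact permutation P = 0.6). The transcripts share exons and may share reads, so the rows are not independent measurements, and a shift between the forms was not detected.

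By sex, Kcnj3 was at 56.0 CPM in male controls and 73.2 in male morphine libraries, and at 60.7 and 74.2 in the female libraries (means of 2). Kcnj6 was at 25.2 and 37.7 CPM in males and at 30.3 and 38.5 in females. Both morphine libraries were above both controls for Kcnj3 and for Kcnj6 in each sex. Kcnj9 was at 90.4 and 81.3 CPM in males and at 77.1 and 80.9 in females, and Kcnj5 at 7.55 and 7.54 in males and 8.86 and 7.27 in females, with overlap in each case.

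No subunit was called between female and male libraries, with log2 differences from -0.12 (Kcnj9) to 0.15 (Kcnj6) and an adjusted P of 1.00 for each by edgeR's quasi-likelihood test, a comparison in which 0.00528% of all genes were called (587 genes had an unadjusted P under 0.05, DESeq2 called 26, and edgeR called 5 without control replicate 5). Without control replicate 5 these differences lay between -0.090 (Kcnj9) and 0.20 (Kcnj5). The morphine difference of females minus that of males was -0.099 for Kcnj3 (95% interval -0.55 to 0.35) and -0.23 for Kcnj6 (-0.85 to 0.38). It was -0.28 for Kcnj5 (-1.34 to 0.78) and 0.22 for Kcnj9 (-0.34 to 0.79), with 0% of all genes called for this interaction by edgeR (325 genes had an unadjusted P under 0.05, and DESeq2 called 4). Without control replicate 5 the values were -0.12 for Kcnj3, -0.31 for Kcnj6, -0.62 for Kcnj5 and 0.18 for Kcnj9, and both female morphine libraries were still above the remaining female control for Kcnj3 and for Kcnj6.

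Markers of tissue outside the PVT moved with the groups. The summed level of 11 telencephalic pyramidal neuron markers was 391, 385, 398 and 685 CPM in controls 1, 2, 5 and 6 and 553, 1090, 906 and 852 CPM in morphine 3, 4, 7 and 8. Neurod6, one of them, was at 5.13 ± 5.78 CPM in controls and 50.8 ± 16.5 in morphine (SD, n = 4), and Neurod2 at 14.8 ± 13.0 and 76.7 ± 19.0. By DESeq2 4 of the 11 were called higher and 0 lower, by edgeR 0 (7 were higher at an unadjusted P under 0.05), and the median log2 fold change of the list was 0.99 against 0.0088 over all genes. Choroid plexus markers summed to 43.4 to 160 CPM in controls and 216 to 676 in morphine, with 8 of 12 called higher by DESeq2 (1.7% of all genes) and 0 by edgeR (10 were higher at an unadjusted P under 0.05). Thalamic markers had a median log2 fold change of -0.23 in the same comparison.

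Kcnj6 was high in libraries with a high telencephalic marker sum, with exceptions such as morphine replicate 8, which had more Kcnj6 and a lower sum than morphine replicate 7. That exception rested on Bcl11b, a marker of this list chosen here after its values were seen. It was at 234 CPM in morphine replicate 7 and 119 CPM in replicate 8, a wider gap than that between the sums. Bcl11b was highest in morphine replicates 4 and 7, which also had the highest striatal marker sums given below. Control replicate 6, the control with the highest marker sum, had the highest Kcnj6 of the controls, and morphine replicates 3 and 4, with the lowest and highest sums of their group, had its lowest and highest Kcnj6. Kcnj3 had the same order, with its highest control value in control replicate 6 and its lowest and highest morphine values in replicates 3 and 4. Morphine replicate 3 had a lower sum (553 CPM) than control replicate 6 (685 CPM) and more Kcnj3, at 69.4 against 61.6 CPM. Neurod6 (30.6 against 13.7 CPM), Neurod2 (51.4 against 30.4 CPM) and the choroid plexus sum (246 against 160 CPM) were also higher in morphine replicate 3. The other telencephalic markers were lower in it. Whether Kcnj3 follows any of these was not tested. Prox1, which dentate granule and some thalamic cells also express and which was chosen here after its values were seen, made up much of the sum in controls 1, 2 and 5. Without it the sums were 229, 271, 254 and 530 CPM in the controls and 426, 978, 764 and 741 CPM in the morphine libraries, so that the order of controls 1, 2 and 5 changed, and the statements on control 6 and morphine 3 and 4 held for these sums too. With a score of these markers in the model, the log2 fold change was 0.12 for Kcnj6 (standard error 0.186) and 0.23 for Kcnj3 (0.132), against 0.46 and 0.34 without it. With a choroid plexus score in the model the values were 0.076 (0.203) and 0.18 (0.146). For Kcnj9 the log2 fold change went from -0.047 to -0.26 (standard error 0.212) with the choroid plexus score, and for Kcnj5 from -0.15 to -0.35 (0.375) with it, -0.26 (0.336) with the telencephalic score and -0.36 (0.221) with a medial habenula score. Neurons of cortex and hippocampus express both Kcnj3 and Kcnj6, as background. In RNA from pooled tissue a change in the makeup of the cells and a change of RNA per cell cannot be told apart. Such scores differ between the groups themselves, so these fits do not separate the markers from morphine.

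**Figure D4:**
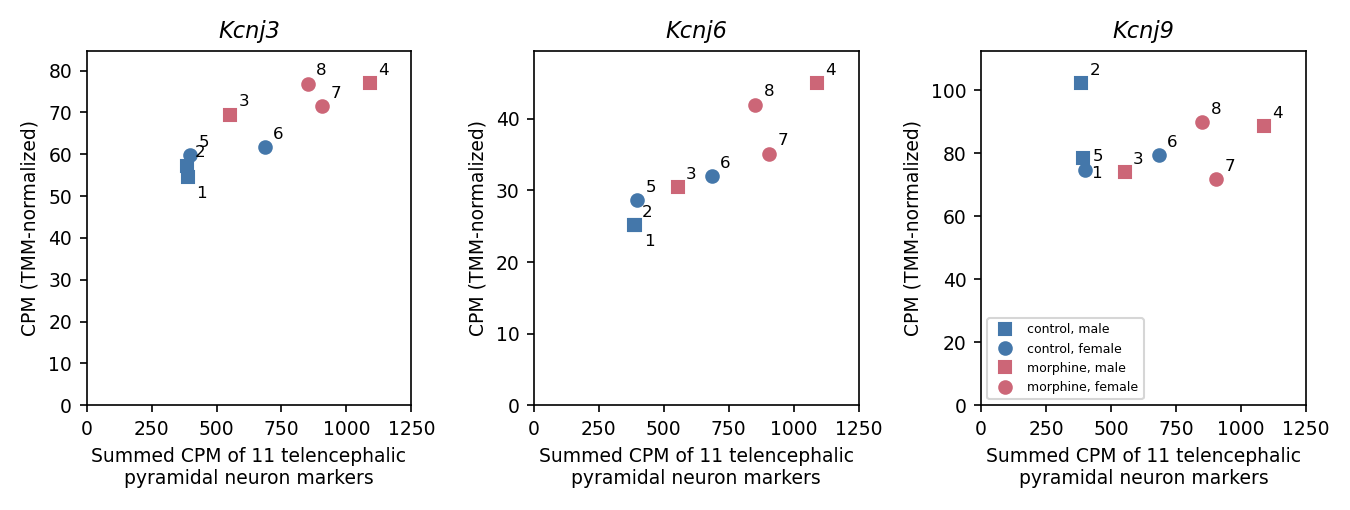
TMM-normalized CPM of Kcnj3, Kcnj6 and Kcnj9 against the summed CPM of 11 telencephalic pyramidal neuron markers in each library (linear axes from 0; blue control, red morphine; squares male, circles female; numbers are replicates). Kcnj6 goes from 25.2 CPM at a marker sum of 385 to 45.0 CPM at 1090, with exceptions such as morphine 7 and 8, whereas Kcnj9 has its highest value, 102.3 CPM, at a sum of 385. The order of morphine 7 and 8 on the marker axis rests on Bcl11b.

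Other tissues moved less evenly. Medial habenula markers summed to 524 to 819 CPM in controls and 323 to 670 in morphine, but most of that sum was Calb2, singled out after its values were seen and also on the thalamic list. Without Calb2 the other 9 summed to 97.2 to 136 CPM in controls and 106 to 146 CPM in morphine, and 6 of the 10 genes had a log2 fold change above 0 (median 0.19). With the score of this list in the model Kcnj3 and Kcnj6 had log2 fold changes of 0.33 and 0.47. Striatal markers, a list chosen after the values were seen, summed to 2240 and 1870 CPM in morphine 4 and 7, to 358 and 501 CPM in the other morphine libraries and to 618 to 1030 CPM in controls. With their score in the model the values were 0.34 and 0.46. Sums of the oligodendrocyte markers were 121 to 1220 CPM in controls and 561 to 1480 in morphine, and the fold change was above 0 on the log2 scale for 8 of 8 (median 0.59), although edgeR and DESeq2 called 0 of them and 0 passed an unadjusted P of 0.05. For astrocyte markers they were 536 to 646 and 472 to 676 CPM, mostly from Slc1a2 and Aldoc, and 6 of the 8 lay above 0 on the log2 fold change scale (median 0.37). The sums of GABAergic neuron markers were 1230 to 1620 and 956 to 1480 CPM, those of ependymal markers 6.18 to 7.17 and 5.79 to 11.9 CPM, and those of microglial markers 1.20 to 6.62 and 2.30 to 3.64 CPM. The part of these cells in the subunit levels was not tested.

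The genes around the channel were read from 4 lists, of receptors that open it, G protein subunits, regulators and other inward rectifiers. edgeR's quasi-likelihood test called 0 genes in each of these lists, whereas at an unadjusted P under 0.05 it gave 9 higher (13.6%) and 4 lower (6.06%) among the 66 listed genes. Over all genes the shares were 6.79% higher and 5.31% lower, so the share of lower genes was near that of all genes, and the counts of 1 to 3 genes per list are descriptions.

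Of 21 receptors that couple to GIRK channels, 3 were higher and 1 lower at an unadjusted P under 0.05, and the median log2 fold change was 0.20. Oprm1, the receptor at which morphine acts, was the one lower, at 32.3, 29.4, 16.8 and 22.7 CPM in controls and 15.9, 14.0, 17.6 and 18.4 CPM in morphine. Its groups overlapped in control replicate 5, and the log2 fold change was -0.62, standard error 0.186 (edgeR's quasi-likelihood test, adjusted P = 0.207, DESeq2 0.0623). Npy1r, a receptor of neuropeptide Y, was at 7.96 ± 1.59 CPM in controls and 12.9 ± 1.59 in morphine without overlap (log2 fold change 0.70, adjusted P = 0.112 by edgeR and 0.00465 by DESeq2). The subunits of the GABA-B receptor, a main partner of GIRK channels, were at 828 ± 128 and 947 ± 131 CPM (Gabbr1) and at 248 ± 37.2 and 297 ± 54.2 CPM (Gabbr2), with overlapping groups.

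Of 19 G protein subunits, 2 were higher and 1 lower at an unadjusted P under 0.05, with a median log2 fold change of 0.024. Gnao1, the most abundant inhibitory alpha subunit of brain, was at 799 ± 88.4 and 799 ± 73.9 CPM. Gng10, a gamma subunit, was at 24.8 ± 3.15 CPM in controls and 34.1 ± 4.37 in morphine without overlap (log2 fold change 0.46, adjusted P = 0.185 by edgeR and 0.0453 by DESeq2). Gng5 did not overlap either, at levels of 0.359 to 1.21 CPM.

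Of 15 regulators, 2 were higher and 1 lower at an unadjusted P under 0.05, with a median of 0.083. Rgs7 and Gnb5, which form a complex that speeds the closing of the channel, were at 151 ± 16.6 and 152 ± 12.2 CPM and at 174 ± 2.33 and 174 ± 19.9 CPM. Snx27, a sorting nexin that binds the tail of GIRK3 and of a form of GIRK2, was at 297 ± 27.7 and 279 ± 22.0 CPM. Pip5k1b, a kinase that makes the lipid PIP2 which GIRK channels need to open, was at 38.0 ± 1.74 CPM in controls and 48.7 ± 3.37 in morphine without overlap (log2 fold change 0.36, adjusted P = 0.143 by edgeR and 0.0114 by DESeq2).

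Of the 11 other inward rectifiers, 2 were higher and 1 lower at an unadjusted P under 0.05, with a median of 0.093. DESeq2 called Kcnj2 alone, a classical strong inward rectifier, chosen here after its values were seen, at 8.71 ± 2.31 CPM in controls and 14.4 ± 3.17 in morphine (log2 fold change 0.72, adjusted P = 0.201 by edgeR and 0.0450 by DESeq2). The groups of Kcnj13, a channel of choroid plexus and other epithelia, did not overlap, with 0 to 1.00 CPM in controls and 1.57 to 4.81 in morphine (log2 fold change 2.74, adjusted P = 0.151 by edgeR and 0.146 by DESeq2). It overlaps Gigyf2 on the other strand. Kcnj10, the main inward rectifier of astrocytes, was at 13.8 ± 7.75 and 20.1 ± 9.46 CPM, and Kcnj12, chosen after its values were seen, at 70.2 ± 7.28 and 57.2 ± 7.87 CPM.

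The genes whose log2 CPM followed each subunit most closely over the 8 libraries were found among the 13703 genes that no library held at fewer than 10 counts. For Kcnj3 they were Ccnjl (Pearson r = 0.993), Pcdh20 (0.988) and Zfp238 (0.987), and for Kcnj6 Mmp16 (0.959), Ccnjl (0.957) and Gpsm2 (0.957). Ccnjl thus stood on both lists. For Kcnj9 they were Rhbdd2 (0.977), Gpr137 (0.970) and Syngr1 (0.966), and for Kcnj5 Eif4h (0.973), Wdfy4 (0.946) and Egfem1 (0.943). The points share library, depth and group, and the highest of so many values over 8 points are large by selection, so these are descriptions. All 3 genes named for Kcnj3 were higher in morphine without overlap, with log2 fold changes from 1.04 to 1.21, against 3.34% of all genes. The selection made this close to certain, because Kcnj3 itself separated the groups. Of those named for Kcnj6, Ccnjl and Gpsm2 did not overlap and Mmp16 did, with log2 fold changes of 1.21, 0.58 and 0.35. Those named for Kcnj9 and Kcnj5 overlapped and lay between -0.14 and -0.027.

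The fold changes of the subunits were recomputed under other settings. Under all 21 of them Kcnj3 and Kcnj6 stayed above 0, and the lowest values were those with the choroid plexus score. Kcnj3 passed an adjusted P of 0.05 with DESeq2 and with no other setting. When single libraries were left out, Kcnj3 lay between 0.29 and 0.36 and Kcnj6 between 0.37 and 0.55. For Kcnj9 and Kcnj5 the sign depended on single libraries.

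**Figure D5:**
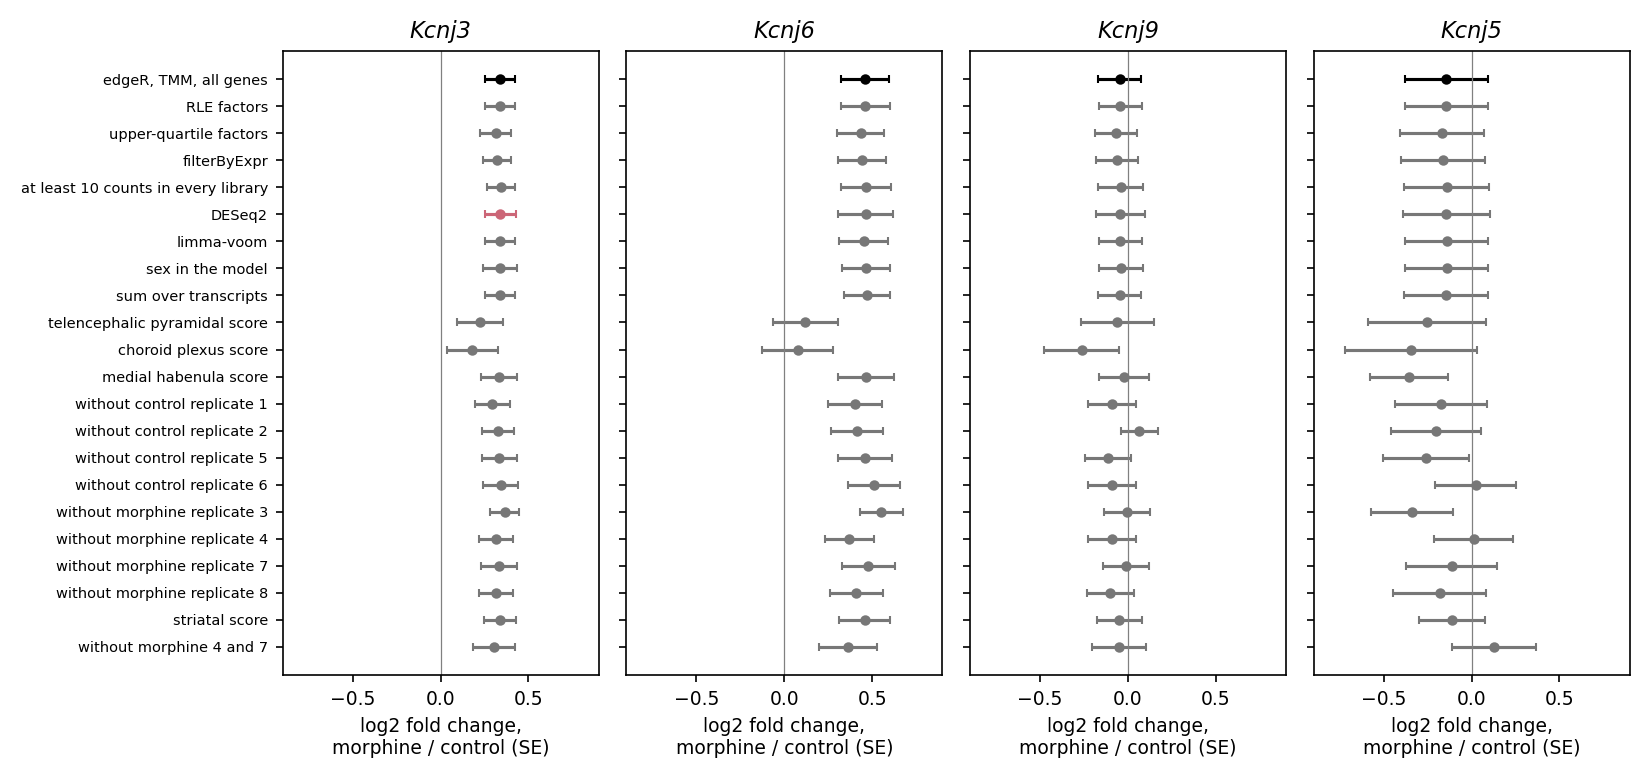
Log2 fold change of each subunit, morphine over control, with its standard error, under each setting (black, edgeR with TMM factors over all genes; grey, other settings with an adjusted P of 0.05 or more; red, adjusted P below 0.05). Kcnj3 and Kcnj6 lie above 0 throughout, lowest with the choroid plexus score at 0.18 and 0.076, and DESeq2 for Kcnj3 is the only red point.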

How the data were processed

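The deposited table gives, for each RefSeq transcript, a whole-number count of reads in every library, which the authors did not normalize. Its build, mm10, and DESeq2 are named in the submitters' processing notes. The counting tool is not given in the sources used here. The methods describe Salmon with tximport, which give values per gene, but this table has whole numbers per transcript. In 32.1% of genes with more than 1 row, 2 or more rows were equal in all 8 libraries, so reads may be counted on several rows. All 24488 rows name a gene, and 0 columns were left without a sample. Each gene was represented by its row with the highest total (3532 of 18939 genes have more than 1 row).

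Groups and sexes came from the labels. The design assumed 1 count per gene. After TMM scaling, all genes were fitted in edgeR 4.0.16 (R 4.3.3) with condition as the only term, and the quasi-likelihood P values were adjusted by Benjamini-Hochberg. The standard error is the absolute log2 fold change divided by the square root of F. CPM were computed from the deposited counts, 0.5 was added before log2 in exact tests, and the 2-sided exact permutation tests ran over 70 arrangements or, for order by length, 256 sign flips. Lengths came from the GENCODE M21 transcript matched to each row. The replicates are separate pools of mice.

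Alternatives were DESeq2 1.42.0, limma-voom (limma 3.58.1), upper-quartile or RLE factors, sex as a term, a marker score as a term, sums over transcripts, a filter on low counts (filterByExpr, or 10 counts as the minimum per library) and each library left out. A striatal score and the removal of morphine 4 and 7 together were added after the data had been seen. On simulated data for morphine against control (18589 genes on average, 200 changed at a log2 fold change of 1.5, 3 draws), edgeR recovered 95.3% with 6.69% of calls false, DESeq2 97.3% with 16.1%, and limma-voom 94% with 5.19%.

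The members, lists and rules were chosen with earlier results of these data known. Named were the 4 subunits, listed genes called by edgeR or without overlap between the groups, Oprm1, Gabbr1, Gabbr2, Gnao1, Rgs7, Gnb5, Snx27, Kcnj10 and Kcnj13, and the 3 genes most like each subunit. Genes outside this rule are given as markers or as chosen after their values were seen. PCR copies are not marked, so reads are not independent molecules. No sequencing batch is given in the labels, so no values within batches were computed. Figures were drawn with matplotlib 3.10.9.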

Additional observations from a re-analysis of the deposited data

Results flagged for a closer look

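Of 20 groups of 4 libraries screened, 1 held a library far from its others. Kcnj9 was at 102 CPM in control replicate 2, whereas the other controls lay between 74.8 and 79.4 CPM, and the gap was 0.833 of the whole range of the group. Chance sets apart about 1 group in 20 by this criterion. The cause was not tested.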

How the results depend on the processing

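The number of genes called by edgeR's quasi-likelihood test over all genes was 37. It was 14 with filterByExpr, 15 with at least 10 counts in every library, 22 with sums over transcripts, 23 with limma-voom, 110 with sex in the model and 498 with DESeq2. With marker scores in the model it was 1 (telencephalic), 0 (choroid plexus, 615 at an unadjusted P under 0.05), 0 (medial habenula, 1764) and 16 (striatal). Without morphine 4 and 7 together it was 0 (2061 unadjusted). With single libraries left out it lay between 0 and 77, with 0 without morphine replicate 4 (1696 unadjusted) or 8 (1664 unadjusted) and 77 without control replicate 6 or morphine replicate 3.

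Kcnj3 had a log2 fold change of 0.34 and an adjusted P of 0.00972 with DESeq2. Its range with single libraries left out was 0.29 to 0.36 (adjusted P 0.0928 to 0.473), and that of Kcnj6 was 0.37 to 0.55 (0.0928 to 0.554). The ranges were -0.34 to 0.022 for Kcnj5, which changed sign without control 6 (0.022), without morphine 4 (0.011) and without morphine 4 and 7 (0.13), and -0.11 to 0.064 for Kcnj9, which changed sign without control 2. All 4 subunits had values outside these ranges. A choroid plexus score in the model gave 0.18 for Kcnj3, 0.076 for Kcnj6, -0.26 for Kcnj9 and -0.35 for Kcnj5. Kcnj3 was at 0.23 and Kcnj6 at 0.12 when the score was telencephalic, and Kcnj5 was at -0.36 with the medial habenula score. Without morphine 4 and 7 together Kcnj6 was at 0.361, just below its range, and Kcnj5 at 0.13. The log2 differences in ratio ranged from -0.44 to -0.27 (Kcnj9 to Kcnj3), -0.59 to -0.35 (Kcnj9 to Kcnj6), -0.19 to -0.049 (Kcnj3 to Kcnj6), 0.30 to 0.71 (Kcnj3 to Kcnj5), 0.35 to 0.89 (Kcnj6 to Kcnj5) and -0.11 to 0.34 (Kcnj9 to Kcnj5, which changed sign without control 6, -0.061, or morphine 4). With sums over transcripts the log2 per-length ratio was -0.58 for Kcnj9 to Kcnj6 and -1.34 for Kcnj3 to Kcnj6, by construction, since 4 rows of Kcnj6 are then added. At a Kcnj6 length of 2362 bases, an alternative chosen after the data were seen, the latter was -0.12 (exact permutation P adjusted over the 6 pairs 0.0625). The causes of the other changes were not tested. No paired analysis was possible because the groups share no replicate numbers. Depth was lowest for Kcnj5 (160 to 415 reads per library). How much of its spread is counting error was not tested.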
